A study of Sus scrofa with 13 samples.

Results

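The genes described here encode the proteins of the cytosolic ribosome of the pig, Sus scrofa, and some paralogs of these proteins. They are the rows of a gene table on the Sscrofa11.1 build whose symbol begins with RPL or RPS followed by a number, together with RPLP0, RPLP1, RPLP2 and RPSA. Kinases named RPS6K and names of pseudogenes were left out. The rule found 83 of the 28232 genes in the table, 51 of the large subunit and 32 of the small subunit. They carry 82 symbols, since RPL18 stands on 2 rows, and the second RPL18 row had no count in any library. All 83 are protein-coding genes in RefSeq, spread over 17 chromosomes with 4 on X.

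The ribosome makes protein from messenger RNA: its small subunit reads the message and its large subunit joins the amino acids. The early embryo starts with ribosomes and messages stored in the egg and makes its own after its genome has been switched on, which in the pig happens mainly around the 4-cell stage. Messages of ribosomal proteins begin with a terminal oligopyrimidine (TOP) tract, through which the mTOR kinase and the RNA-binding protein LARP1 control their translation and stability.

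Messenger RNA was sequenced from pooled embryos in 5 groups and 13 libraries. Embryos that developed in vivo were taken as blastocysts (n = 2), which have a fluid-filled cavity, and as hatched blastocysts (n = 2), which have left the zona pellucida. Embryos from in vitro fertilisation (IVF) were taken as 4-cell embryos and at both later stages (n = 3 each). The labels name no strain, treatment, age or sex, and no in vivo 4-cell embryos were analysed here. The size of a pool and the animals or rounds of fertilisation behind each library are not given in the sources used here, so the p-values measure only the spread between these libraries, which may be technical. One in vivo hatched library has no replicate number on its count column and is called the unnumbered library. In pools of whole embryos, fewer cells of a type and less RNA per cell cannot be told apart.

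Libraries held 33259311 to 39273867 counts. The trophectoderm keratins KRT8 and KRT18 were at most 3.44 CPM (a gene's counts scaled to a common library size) in 4-cell libraries. They had at least 1888 CPM in all blastocyst and hatched libraries. Of the other trophectoderm markers listed, GATA3 was at most 8.88 CPM in 4-cell libraries and at least 45.1 CPM later. CDX2 was at 0 in 4-cell libraries and present in every later library. TFAP2C did not separate the stages. It had 774.5, 142.2 and 86.9 CPM in 4-cell libraries 1, 2 and 3 and 159.5 to 392.5 CPM later, so library 1 was above every later library. Summed over ZP3, ZP4, GDF9, BMP15 and NLRP5, oocyte messages ran from 14392 to 20120 CPM at the 4-cell stage and reached at most 8.53 CPM later. Summed levels of markers for cumulus cells (4 of 5 listed genes found in the table), blood (4 of 4) and sperm (3 of 3) stayed at or under 4.15 CPM in every library, with FSHR, ODF1 and TNP1 at 0 throughout. UPTI, listed as a marker of uterine epithelium, was at 0 in 4-cell embryos, 29.9 to 120.4 CPM in in vivo and 221.0 to 378.3 CPM in IVF blastocyst and hatched libraries, and OVGP1 and FOXJ1 stayed at or under 2.69 CPM. Hypoblast markers (SOX17, GATA4 and PDGFRA) summed to 85.0 CPM in the unnumbered in vivo hatched library and 401.2 in library 2, against 18.2 to 29.4 in the other blastocyst and hatched libraries.

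One 4-cell library stood apart. In 4-cell library 1, 71 of the ribosomal protein genes were higher than in both other 4-cell libraries and 7 were lower. The median ratio of library 1 to the mean of the others was 5.17 for the ribosomal protein genes and 0.845 for the 16533 genes with at least 30 counts over the 4-cell libraries, of which 38.9% were higher in library 1 than in both others. The same library had 281.2 CPM of KLF4 against 30.1 and 16.1, and 774.5 CPM of TFAP2C against 142.2 and 86.9, but less POU5F1, at 376.0 against 845.7 and 792.7 CPM. Its part in the stage comparisons is given by values with and without it.

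Ribosomal protein messages took up a small share of the 4-cell libraries and a larger one of every blastocyst library. They made up 0.590%, 0.206% and 0.183% of all counts in 4-cell libraries 1, 2 and 3. In IVF blastocysts the share was 1.72%, 1.64% and 1.78%, and in IVF hatched blastocysts 1.64%, 1.25% and 1.41%. In vivo blastocysts had 1.12% and 1.55%, and for the in vivo hatched group 1.70% was seen in the unnumbered library and 1.21% in library 2. All 10 blastocyst and hatched libraries were therefore above all 3 4-cell libraries. Every IVF blastocyst library was above both in vivo blastocyst libraries, whereas the ranges of the hatched groups overlapped. The group means were 0.326% ± 0.229 (SD, n = 3) at the 4-cell stage, or 0.194% without library 1, and 1.71% ± 0.0739 (SD, n = 3) in IVF blastocysts.

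**Figure D1:**
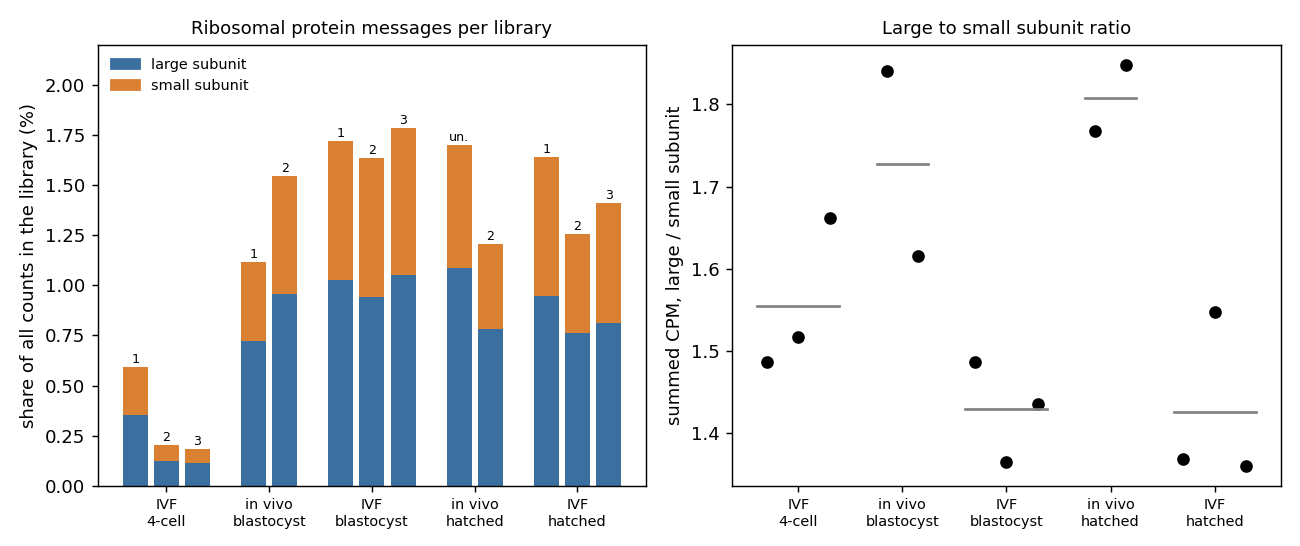
Left, the share of each library's counts that fell on ribosomal protein genes, in percent, stacked by subunit, with replicate numbers above the bars (un., the unnumbered library). Right, summed CPM of the large subunit over that of the small subunit, 1 point per library with group means as lines; the in vivo points lie between 1.62 and 1.85 and the IVF blastocyst and hatched points between 1.36 and 1.55.

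The balance between the subunits did not overlap between origins after the 4-cell stage. In the in vivo blastocyst libraries, large subunit genes had 1.84 and 1.62 times the summed CPM of small subunit genes, and in the in vivo hatched libraries 1.77 and 1.85 times. The ratio was 1.49, 1.36 and 1.44 in IVF blastocysts and 1.37, 1.55 and 1.36 in IVF hatched blastocysts. All 4 in vivo values were thus above all 6 IVF values, while the 4-cell libraries, at 1.49, 1.52 and 1.66, overlapped both. Without the 5 most abundant genes of each subunit, a choice made after seeing the data, the ratio was 2.02 and 2.01 in in vivo blastocysts and 2.19 and 2.18 in in vivo hatched blastocysts. It was then 1.82 to 1.85 in IVF blastocysts, 1.80 to 1.87 in IVF hatched blastocysts and 1.61 to 1.69 in 4-cell embryos. The gap by origin was therefore present with and without these abundant genes. On the per-length FPKM scale (fragments per unit of gene length and depth, as the authors gave them), the ratio was 1.54 to 1.73 in the 3 in vivo libraries with usable FPKM, 1.32 to 1.45 in the 6 IVF blastocyst and hatched libraries and 1.39 to 1.43 in 4-cell embryos. These ratios are sums over the genes and were given no test, and the FPKM ratio also depends on the length assigned to each gene.

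Levels differed widely from gene to gene. On the FPKM scale the highest members over the groups were RPL8, RPSA and RPL4, with RPL8, a protein close to the catalytic centre, at 1001 ± 74.9 FPKM (SD, n = 3) in IVF blastocysts. The lowest with any counts were RPL3L, RPL10L and RPL22L1, which are paralogs of other members. The FPKM order also depends on the length assigned to each gene. RPS2 had the highest mean CPM in IVF blastocysts (1085) but 181.4 FPKM there, and was at rank 41 by FPKM over the groups. Proteins of the ribosome are mostly present in equal numbers, while the FPKM of these genes spread widely. The genes include paralogs and FPKM depends on assigned length, so the spread is not a measure of message numbers. The 90th percentile of FPKM over 82 members was 13.8 times the 10th in in vivo blastocysts, 12.9 times in in vivo hatched library 2, 14.5 times in 4-cell, 8.77 times in IVF blastocysts and 9.49 times in IVF hatched embryos.

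The order of the genes was different at the 4-cell stage. RPLP0, the base of the stalk that recruits elongation factors, ranked first by FPKM in 4-cell embryos, 15th and 14th in in vivo blastocysts and hatched blastocysts, and 5th and 6th in their IVF counterparts. It made up 13.3% and 11.8% of the ribosomal protein counts in 4-cell libraries 2 and 3 but 2.90% in library 1, and 1.89% to 3.78% in blastocyst and hatched libraries. RPL4, which lines the exit tunnel for the new protein, went the other way, from rank 31 at the 4-cell stage to rank 2 or 3 in the 4 later groups. Its share of the ribosomal protein counts was 0.704% to 3.71% in 4-cell libraries, 7.30% to 8.50% in the 4 in vivo libraries and 5.82% to 6.96% in the 6 later IVF libraries, 3 ranges that did not overlap.

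Most ribosomal protein genes were far higher in the IVF blastocyst than in the 4-cell embryo. With edgeR's quasi-likelihood test, 67 of the 82 genes tested were higher in IVF blastocysts than in 4-cell embryos and 0 were lower, while 25.7% of all 16312 genes tested were called higher. Of the large subunit 39 of 50 rose, and of the small subunit 28 of 32. The median log2 fold change was 2.69 for the ribosomal protein genes, 2.66 for the large and 2.83 for the small subunit, and -0.23 for all genes tested. CPM ranges were apart, with the blastocysts higher, for 68 of the 82, against 29.5% of all genes.

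RPL7, a large subunit protein, showed the smallest p. It had 36.7, 36.4 and 27.3 CPM in the 4-cell libraries and 409.9, 339.1 and 398.5 CPM in the IVF blastocysts. All blastocyst libraries were far above all 4-cell libraries, and 4-cell library 1 did not stand out for this gene. The log2 fold change was 3.77 ± 0.28 (SE, edgeR adjusted p = 3.02e-05).

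Among small subunit genes, RPS10, a protein of the head of the subunit, was as even. It had 21.1, 18.6 and 21.7 CPM at the 4-cell stage and 144.2, 122.5 and 149.4 CPM in IVF blastocysts, a log2 rise of 2.99 ± 0.29 (SE, edgeR adjusted p = 9.29e-05). RPS2 rose by 3.35 ± 0.35 and RPSA, on the outer side of the subunit, by 3.69 ± 0.41 (SE). In the large subunit RPL17, at the exit tunnel, rose by 3.53 ± 0.44 and RPL36A, at the exit site for transfer RNA, by 4.47 ± 0.56. RPL36A has the near-identical paralog RPL36AL, and how shared reads were divided is not known.

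With all libraries in the fit, RPL23 had the highest value in the large subunit and RPS12 in the small. RPL23 had 8.97, 0.541 and 0.237 CPM in 4-cell libraries 1, 2 and 3 and 108.0, 118.0 and 138.4 CPM in IVF blastocysts. It was lowest in 4-cell libraries 2 and 3, and no blastocyst library came near the 4-cell range. Its log2 change was 5.67 ± 1.18 (SE, edgeR adjusted p = 0.0036). RPS12 had 3.17, 0.571 and 0.416 CPM at the 4-cell stage and 45.9 to 54.0 CPM in IVF blastocysts, a log2 change of 5.54 ± 0.76. Without 4-cell library 1 the log2 changes were 8.55 for RPL23 and 6.90 for RPS12, and RPL18, at 8.78, was then the highest in the large subunit.

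Of the stalk proteins, RPLP0 rose by 1.68 ± 0.31, RPLP1 by 2.03 ± 0.44 and RPLP2 by 2.18 ± 0.80 on the log2 scale (SE), and by 1.56, 2.70 and 4.04 without 4-cell library 1. RPL5 and RPL11, which bind the 5S ribosomal RNA and the p53 regulator MDM2, rose by 2.40 ± 0.39 and 2.72 ± 0.64. RPL3 and RPL10, both near the catalytic centre, rose by 2.79 ± 0.48 and 2.80 ± 0.86. RPS6, the substrate of S6 kinase, rose by 2.39 ± 0.56, RPS4X by 3.22 ± 0.75 and RPS27A, made as a fusion with ubiquitin, by 4.01 ± 0.67. All of these passed the test, but the call of RPLP2 (edgeR adjusted p = 0.0419) was lost in 5 of 6 fits with a library left out, all but the one without 4-cell library 1, and that of RPL10 without 4-cell library 2.

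The 15 genes that did not pass were RPL7L1, RPL34, RPL38, RPL37A, RPL37, RPL35, RPL22L1, RPL10L, RPL3L, RPL30 and RPL26L1 of the large subunit and RPS16, RPS15A, RPS13 and RPS28 of the small. RPL30 had 30.5, 39.6 and 34.4 CPM in 4-cell embryos and 42.5, 31.3 and 41.0 CPM in IVF blastocysts, with overlapping ranges and a log2 change of 0.36 ± 0.32. RPL26L1 stood at -0.30 ± 0.31 and RPL10L at -1.96 ± 1.38, the lowest value. The count depended on 4-cell library 1. Without it 76 of the 82 genes were called higher and the median log2 change was 3.87. Of all 17355 genes in that fit 5625 were called higher, and their median was -0.09. The 6 ribosomal protein genes that were not called were RPL3L, RPL22L1, RPL30, RPL10L, RPS28 and RPL26L1.

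**Figure D2:**
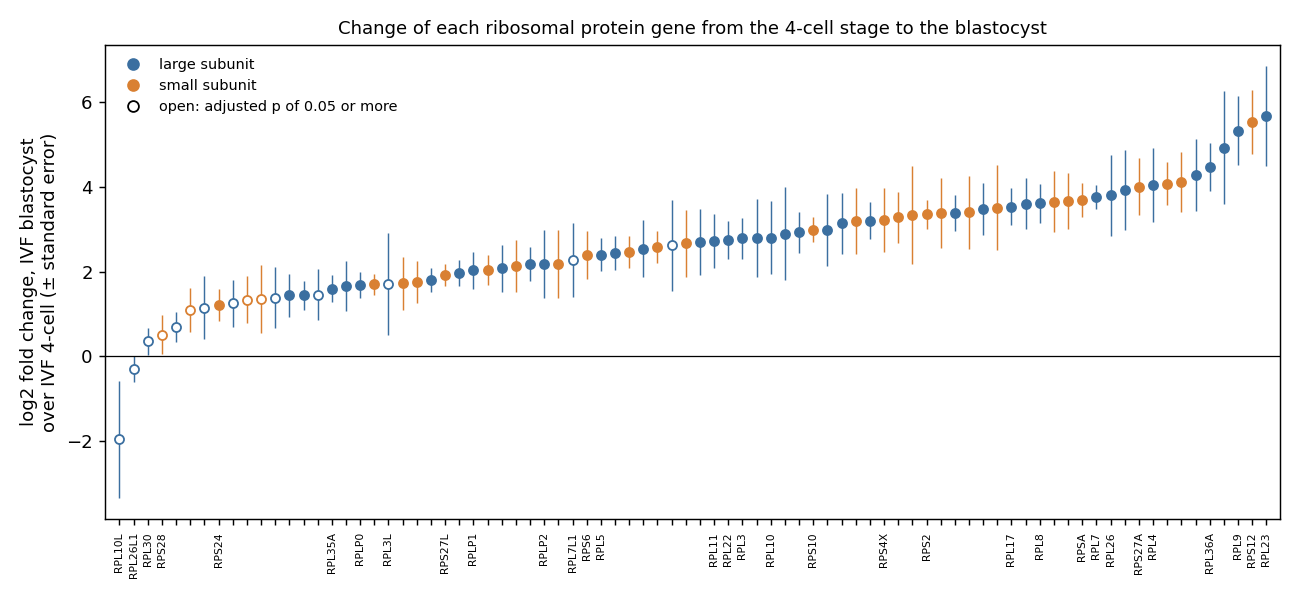
Log2 fold change of each of the 82 ribosomal protein genes tested, IVF blastocysts over IVF 4-cell embryos, in order of size, with standard errors as vertical lines and the symbols of the genes named in the text for this comparison. Blue points are large and orange points small subunit genes, open points did not pass an adjusted p of 0.05, and the values run from -1.96 (RPL10L) to 5.67 (RPL23).

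IVF hatched blastocysts, compared with the same 4-cell libraries, had 61 of 82 genes called higher (37 large, 24 small) and 0 lower, against 25.7% of all genes called higher. The median log2 change was 2.35, against -0.24 for all genes. CPM ranges were apart with hatched embryos higher for 60 genes, against 29.3% of all genes, and lower for RPL10L, RPL26L1 and RPL30, against 36.7%. RPL7 (3.58 ± 0.28), RPL36A (4.39 ± 0.56) and RPL8 (3.44 ± 0.45) had the smallest p in the large subunit, and RPS2 (3.18 ± 0.35), RPS10 (2.63 ± 0.29) and RPSA (3.52 ± 0.40) in the small. RPL9, at the base of the stalk, had the highest value, 5.26 ± 0.82. Without 4-cell library 1 it had 6.94, below RPL18 (8.47) and RPL23 (8.02). Without 4-cell library 1 the count was 76 and the median 3.66, beside 5630 of all 17355 genes called higher and a median of -0.12. With library size as the only scaling, the median of all genes shifted from -0.23 to -0.50 for blastocysts and from -0.24 to -0.55 for hatched blastocysts. With this scaling 55 and 47 ribosomal protein genes were called higher, beside 3749 and 3686 of all 16312 genes.

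Other parts of the translation machinery were read from lists of known genes. RACK1, a ribosome component with another name that serves as a scaffold on the small subunit, rose by 3.11 ± 0.75 on the log2 scale from 4-cell embryos to IVF blastocysts. FAU, a fusion of a ubiquitin-like protein with a small subunit protein, had 356.9, 77.9 and 65.3 CPM in 4-cell libraries 1, 2 and 3 and 140.7, 94.5 and 143.0 CPM in IVF blastocysts. Library 1 was above all blastocyst libraries and the other 4-cell libraries were below them. Its log2 change was -0.03 ± 0.54, but 1.07 without library 1.

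Among 17 other genes known for TOP messages, 10 rose and 1 fell, against 25.7% and 30.6% of all genes, with a median log2 change of 2.16, against -0.23. EEF1G, a subunit of the elongation factor 1 complex, had 2.22, 1.23 and 5.58 CPM in 4-cell embryos and 1068, 1108 and 1116 CPM in IVF blastocysts. No blastocyst library overlapped the 4-cell range, and the log2 change was 8.66 ± 0.75 (SE, edgeR adjusted p = 5.44e-05), above that of any ribosomal protein gene. EEF1D of the same complex rose by 4.23 ± 0.38 and EEF1A1, which delivers transfer RNA, by 3.35 ± 0.36. BTF3, a subunit of the nascent chain-associated complex, fell: it had 1199, 2205 and 2508 CPM in 4-cell embryos and 517.1, 492.0 and 570.5 CPM in IVF blastocysts, and its log2 change was -1.72 ± 0.40.

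Of 11 genes that control TOP messages, 4 rose and 3 fell from the 4-cell stage to the IVF blastocyst, shares near the 25.7% and 30.6% of all genes. LARP1 had 141.7, 136.8 and 129.9 CPM in 4-cell embryos and 18.5, 20.6 and 22.9 CPM in IVF blastocysts, a log2 change of -2.48 ± 0.35 (SE, edgeR adjusted p = 5.71e-04). The 4-cell libraries were close to each other, library 1 included. TSC1, an inhibitor of mTOR signalling, fell (-2.25 ± 0.42), as did RPTOR, a subunit of mTOR complex 1 (-2.15 ± 0.56). EIF4EBP1 and EIF4EBP2, repressors of cap-dependent translation, rose by 2.66 ± 0.36 and 2.59 ± 0.42, and MLST8, an mTOR complex subunit, by 5.36 ± 0.93. Of 7 chaperones and assembly factors of ribosomal proteins, BCCIP, the chaperone of RPL23, rose by 1.64 ± 0.47 and LTV1, an assembly factor of the small subunit, had a log2 change of -3.55 ± 0.40.

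Between IVF and in vivo blastocysts the ribosomal protein genes differed mostly in 1 direction. By edgeR, 13 of 82 genes were called higher in IVF blastocysts and 0 lower, while 6.09% of the 15528 genes tested were called higher. By subunit these were 8 of 50 large and 5 of 32 small subunit genes. The fitted change was above 0 for 68 of the 82, against 51.8% of all genes, and the median log2 change was 0.46 (0.42 large, 0.53 small), against 0.05 for all genes. CPM ranges were apart with IVF higher for 52 genes, against 23.2% of all genes, and with IVF lower for 2 genes, against 20.8%. Markers of the inner cell mass also differed. KLF4 had 20.6 and 23.8 CPM in vivo and 8.99, 2.50 and 2.89 CPM after IVF. POU5F1 went the other way, with 769.9 and 709.7 CPM in vivo and 1376, 1060 and 911.4 CPM after IVF, and SOX2 overlapped. The part of cell types in the differences was not tested.

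RPS24, a small subunit protein known from Diamond-Blackfan anaemia and encoded on chromosome 14 (80473867 to 80480818), had the smallest p. It had 37.5 and 46.0 CPM in in vivo blastocysts and 136.5, 106.5 and 132.1 CPM in IVF blastocysts. The groups were well apart. The 4-cell libraries had 38.6, 79.3 and 69.1 CPM, of which library 1 fell within the in vivo range and the other two between the groups. The log2 difference was 1.56 ± 0.22 (SE, edgeR adjusted p = 0.00381), and of the 13 genes RPS24 alone was called whichever library was left out.

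RPL35A, a large subunit protein of chromosome 13 (134588288 to 134591873) also known from that anaemia, had the largest difference. Its in vivo blastocyst libraries had 23.2 and 28.2 CPM and its IVF blastocyst libraries 73.5, 83.5 and 85.4 CPM. The in vivo blastocysts were at the level of the 4-cell embryos, which had 27.0, 39.8 and 27.2 CPM. The log2 difference was 1.63 ± 0.30 (SE, edgeR adjusted p = 0.00918), and the call was lost without in vivo blastocyst library 1.

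RPL39, a small protein of the exit tunnel wall, had 9.32 and 12.7 CPM in vivo and 26.4, 27.5 and 34.2 CPM after IVF, a log2 difference of 1.40 ± 0.30. RPL9 had 149.7 and 181.5 CPM in vivo and 397.2, 382.2 and 434.6 CPM after IVF, a log2 difference of 1.27 ± 0.28. For both genes every IVF library was above every in vivo library by more than the spread within a group. RPS3, a protein of the messenger RNA entry channel, differed by 1.07 ± 0.28 and RPS27A by 1.32 ± 0.35. The other 7 called genes were RPL17 (1.09), RPL32 (1.07), RPL30 (1.27), RPL38 (1.06), RPL31 (0.84), RPS19 (0.93) and RPS21 (0.85).

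RPLP1 just missed the threshold, at 1.02 ± 0.30 (edgeR adjusted p = 0.0526), and RPLP0 (0.86 ± 0.29) and RPSA (0.83 ± 0.33) did not pass. The lowest value was that of RPL26L1, -0.62 ± 0.25, which did not pass. Leaving out in vivo blastocyst library 1 or 2 leaves 1 library in that group. The median log2 difference was then 0.40 and 0.58, against 0.05 and 0.20 for all genes. Without IVF blastocyst library 1, 2 or 3, 4, 5 and 4 genes were called higher. Of all genes, 521 of 15295, 440 of 15366 and 683 of 15376 were called higher in these fits. DESeq2 called 23, beside 1651 of all 15528 genes called higher. With the 4-cell libraries added to the fit, 0 were called, but of all 18515 genes in that fit 4 were called higher and 3 lower, and the median of the ribosomal protein genes was 0.45.

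Among the control genes of TOP messages, IVF blastocysts had less of 3 of 11 than in vivo blastocysts and more of 0, against 4.74% of all genes called lower. LARP1 had 78.6 and 69.6 CPM in in vivo blastocysts and 18.5, 20.6 and 22.9 CPM in IVF blastocysts, a log2 difference of -1.88 ± 0.30 (SE, edgeR adjusted p = 0.00477). The in vivo blastocysts lay between the IVF blastocysts and the 4-cell embryos. TSC1 differed by -1.45 ± 0.34 and MLST8 by -0.82 ± 0.23. Of the other TOP genes only EIF3E, a subunit of initiation factor 3, was called among the 17, at 0.69 ± 0.20, and 0 of the 3 other ribosome components and 0 of the 7 chaperones were.

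Few ribosomal protein genes differed between hatched blastocysts of the 2 origins. Between IVF and in vivo hatched blastocysts 2 of 82 genes were called higher (6.96% of all genes) and 2 lower (4.88% of all genes), and the median log2 difference was 0.05, against 0.04 for all genes. The median was 0.42 without the unnumbered library, -0.23 without in vivo hatched library 2, -0.05 without IVF hatched library 1 and -0.02 with library size as the only scaling, so its sign was not stable. CPM ranges were apart with IVF higher for 11 genes (22.2% of all genes) and lower for 16 (24.4% of all genes). The hypoblast marker sum, given above, also separated these libraries, and its part in the differences was not tested.

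RPS27L, a paralog of RPS27 known as a target of p53 and encoded on chromosome 1 (108881330 to 108886334), was higher after IVF. It had 54.9 and 46.4 CPM in the in vivo hatched libraries and 122.2, 122.7 and 125.0 CPM in the IVF hatched libraries. The IVF libraries lay close together and well above both in vivo libraries. The log2 difference was 1.36 ± 0.20 (SE, edgeR adjusted p = 0.00206) and the call held whichever library was left out.

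RPL13, a large subunit protein of chromosome 6 (410923 to 413396), was lower after IVF. It had 601.3 and 505.0 CPM in the in vivo hatched libraries and 263.7, 263.5 and 213.1 CPM in the IVF hatched libraries. In vivo and IVF blastocysts that had not hatched had 233.4 to 312.2 CPM, so the in vivo hatched libraries were the ones that stood out. The log2 difference was -1.08 ± 0.21 (SE, edgeR adjusted p = 0.00914), and this call too held whichever library was left out.

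RPL22L1, the paralog of RPL22 on chromosome 13 (109495771 to 109499495), showed the same order at a low level. It had 16.3 and 14.8 CPM in in vivo hatched blastocysts and 5.84, 2.61 and 3.04 CPM in IVF hatched blastocysts, a log2 difference of -1.94 ± 0.46 (edgeR adjusted p = 0.0212). RPS3 was higher after IVF, as in blastocysts, at 1.04 ± 0.28 (edgeR adjusted p = 0.0316). RPS3 lost its call in 3 of 5 fits with a library left out and RPL22L1 in 4 of 5. Without IVF hatched library 3 there were 2 calls, 1 higher and 1 lower, beside 645 higher and 339 lower of all 15356 genes. No count is given for fits without an in vivo hatched library, which leave 1 library in that group. RPS16 had the lowest small subunit value, -0.42 ± 0.22, and RPL10L, at 0.0427 CPM in vivo and 0.128 CPM after IVF on average, was too rare for its highest value, 1.54 ± 2.36, to be read. Of the 17 other TOP genes 1 was called lower in IVF hatched embryos, NPM1, a nucleolar protein of ribosome assembly (-1.20 ± 0.27). Of the 7 chaperones and assembly factors 1 was lower, LTV1 (-0.89 ± 0.26, edgeR adjusted p = 0.0499). Of the 11 control genes 1 was higher, EIF4EBP2 (0.99 ± 0.29, edgeR adjusted p = 0.049). Among all genes 4.88% were called lower and 6.96% higher, and 0 of the 3 other ribosome components were called.

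**Figure D3:**
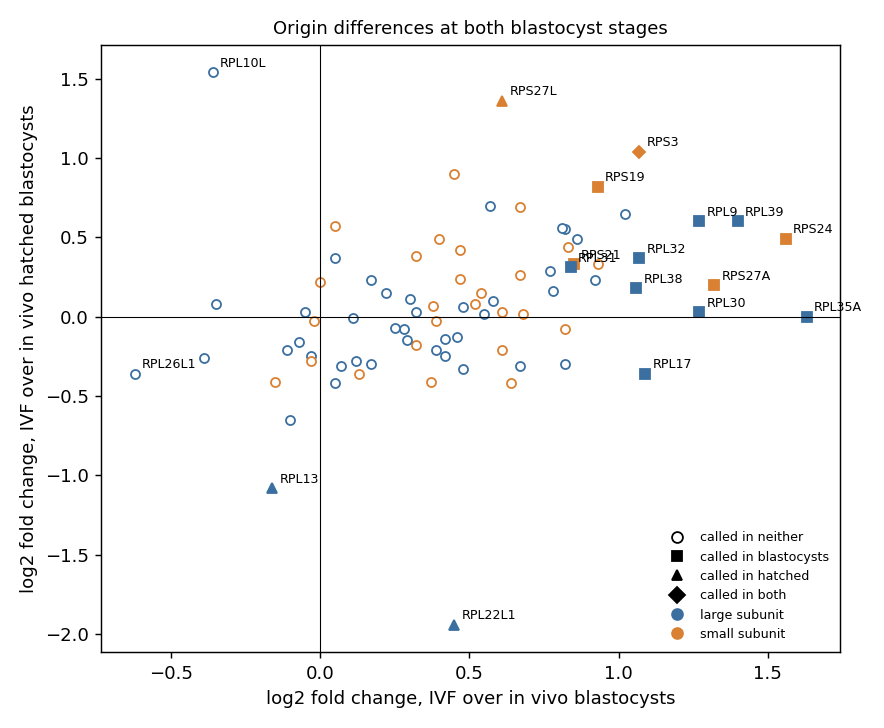
Log2 fold change of IVF over in vivo embryos for each ribosomal protein gene, in blastocysts (horizontal axis) and in hatched blastocysts (vertical axis), with the subunit as colour and calls as marker shape. RPS3 was called in both comparisons, 12 genes in blastocysts only and RPS27L, RPL13 and RPL22L1 in hatched blastocysts only; the comparisons share 1 fit but no library.

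Between in vivo blastocysts and in vivo hatched blastocysts 5 genes were called, in neither direction a larger share than among all genes. The hypoblast marker sum, given above, also separated these groups, and its part in the differences was not tested. The in vivo hatched libraries were higher than the in vivo blastocysts for 4 of 82 genes, against 6.96% of all genes, and lower for 1, against 7.39%. The fitted change was above 0 for 53 genes, against 49.7% of all genes, and the median was 0.15, against -0.01. CPM ranges were apart with hatched embryos higher for 24 genes, against 28.1% of all genes, and lower for 8, against 25.4%. RPL22L1 rose from 2.55 and 3.85 to 16.3 and 14.8 CPM, a log2 change of 2.22 ± 0.54 (edgeR adjusted p = 0.0195). RPL35A rose from 23.2 and 28.2 to 84.1 CPM in the unnumbered library and 46.5 in library 2, by 1.29 ± 0.32 on the log2 scale. RPL17 rose from 45.4 and 57.6 to 141.3 and 89.1 CPM, by 1.10 ± 0.28.

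RPL13 rose from 312.2 and 283.3 to 601.3 and 505.0 CPM, by 0.81 ± 0.24, and RPS27L fell from 90.7 and 88.4 to 54.9 and 46.4 CPM, a log2 change of -0.90 ± 0.21 (edgeR adjusted p = 0.0178). In each of these 5 genes the groups did not overlap, but each call was lost with at least 1 library left out. Leaving out any of these libraries leaves 1 library in a group. The median log2 change was then 0.04 without in vivo blastocyst library 1 and 0.23 without library 2. It was -0.22 without the unnumbered hatched library and 0.38 without hatched library 2, so its sign was not stable. The largest small subunit rise, that of RPS27A (0.74 ± 0.37), did not pass. RPL10L, with 0 and 0.701 CPM before and 0.0854 and 0 after hatching, had the lowest value, -2.90 ± 2.59, which was 3.75 without in vivo blastocyst library 2. In the lists of partners 1 of 17 other TOP genes rose, NPM1 (0.98 ± 0.30, edgeR adjusted p = 0.0499). Of 7 chaperones and assembly factors 1 rose, GRWD1, the chaperone of RPL3 (1.10 ± 0.28). Of 11 control genes 3 fell, EIF4EBP2 (-1.38 ± 0.32), LARP1 (-1.36 ± 0.33) and TSC1 (-1.40 ± 0.38). Among all genes 6.96% were called higher and 7.39% lower, and 0 of the 3 other ribosome components were called.

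Hatching of IVF blastocysts was accompanied by small differences that did not pass the test. Of the 82 genes 0 were called by edgeR and 0 by DESeq2, and 2, RPS24 (-0.47) and RPS7 (-0.49), had an unadjusted p under 0.05. Among all genes 0.0451% were called lower and 0 were called higher. The fitted change was below 0 for 79 of the 82 genes and the median log2 change was -0.30, against 0.00 for all genes. CPM ranges were apart with hatched embryos lower for 28 genes, against 6.21% of all genes, and higher for RPL3L alone, against 4.43%. The 3 genes above 0 included RPL3L (0.82 ± 0.87) and RPS4X (0.17 ± 0.20), and the lowest value was that of RPL10L (-1.0 ± 1.97).

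The difference between the hatching changes was tested as an interaction. Of the 82 genes 2, both of the large subunit, were called with a lower change in IVF embryos, against 1.93% of all genes, and 0 with a higher one, against 2.79%. The interaction was above 0 for 15 of the 82, against 49.8% of all genes, and its median was -0.41, against 0.00. RPL35A went from 25.7 ± 3.53 to 65.3 ± 26.6 CPM in vivo (SD, n = 2 each) and from 80.8 ± 6.37 to 62.2 ± 13.9 CPM after IVF (SD, n = 3 each). RPL17 went from 51.5 ± 8.60 to 115.2 ± 36.9 CPM in vivo and from 111.2 ± 20.1 to 85.3 ± 9.28 CPM after IVF. For both, the in vivo blastocysts were the low group and the other 3 groups overlapped. The interaction was -1.64 ± 0.41 for RPL35A (edgeR adjusted p = 0.0434) and -1.45 ± 0.36 for RPL17 (edgeR adjusted p = 0.0448), and the calls were lost in 8 and 9 of 10 fits with a library left out. RPL22L1 had -2.39 ± 0.67 and did not pass (edgeR adjusted p = 0.0663).

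**Figure D4:**
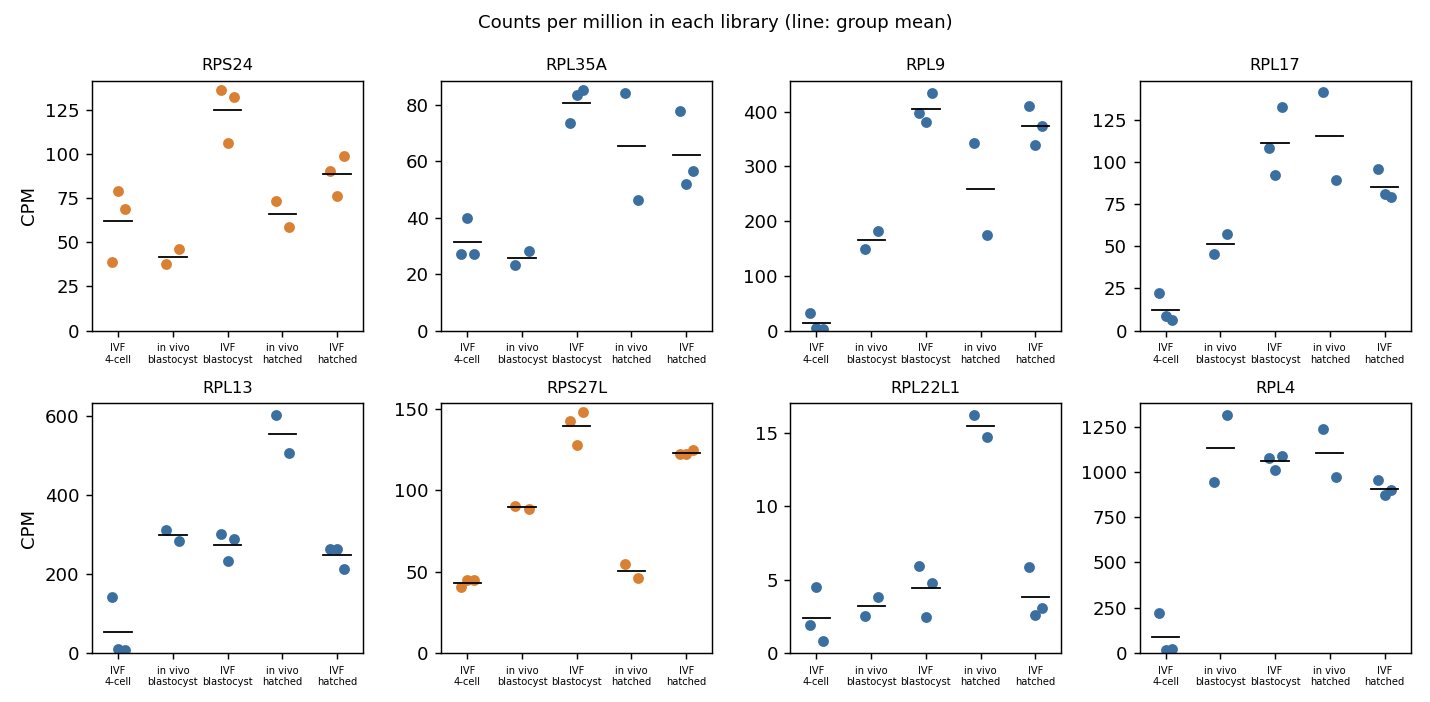
CPM in each library of 8 ribosomal protein genes by group, with lines at the group means. RPS24, RPL35A, RPL9 and RPL17 were lowest among blastocyst groups in in vivo blastocysts, RPL13 and RPL22L1 highest and RPS27L lowest among blastocyst groups in in vivo hatched embryos, and RPL4 rose from the 4-cell stage to a common level.

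Some ribosomal proteins have a paralog, which in some cases may take their place in the ribosome, and 6 pairs of a member and its paralog were compared. Shares within a pair were taken on the FPKM scale, on which in vivo hatched blastocysts had 1 usable library, library 2. RPL26L1, encoded on chromosome 16 (51267492 to 51276692), made up 84.8%, 97.3% and 98.9% of its pair with RPL26 in the 4-cell libraries. Its share was 61.6% and 59.9% in in vivo blastocysts, 44.8% in in vivo hatched library 2, 39.6% to 45.4% in IVF blastocysts and 40.2% to 42.4% in IVF hatched blastocysts. The 4-cell libraries were above all others, and the in vivo blastocysts were above every other blastocyst and hatched library.

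Both members of that pair moved differently between stages. RPL26 had 10.2, 0.962 and 0.445 CPM at the 4-cell stage and 34.8 to 43.1 CPM in IVF blastocysts, a log2 rise of 3.80 ± 0.96, while RPL26L1 had 72.3, 44.0 and 39.2 CPM at the 4-cell stage and 27.4 to 42.3 CPM in IVF blastocysts. RPS27L had 66.0%, 96.6% and 98.2% of its pair with RPS27 in the 4-cell libraries, and 61.8% to 75.0% in the later libraries with FPKM, so only 4-cell library 1 fell in the later range.

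RPL22L1 made up 54.1% of its pair with RPL22 in in vivo hatched library 2 and 10.6% to 24.1% in the other blastocyst and hatched libraries with FPKM. In CPM, the unnumbered in vivo hatched library had 16.3 of RPL22L1 and 13.3 of RPL22, close to the 14.8 and 9.29 of library 2. In 4-cell embryos its share was 24.0%, 49.4% and 29.0%. RPL7L1, a paralog of RPL7 with a role in ribosome assembly, was 65.4% of its pair in 4-cell library 1 but 12.2% and 13.5% in libraries 2 and 3, and 16.2% to 25.6% later. RPL10L, a copy of the X-linked RPL10 known from the testis, was 1.93%, 9.18% and 5.37% of its pair in 4-cell embryos and at most 0.323% later. RPL3L, known from striated muscle, never passed 0.400% of its pair with RPL3, and its annotated span overlaps NDUFB10. The proteins of a pair are alike, so a read that fits both genes could count for either.

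**Figure D5:**
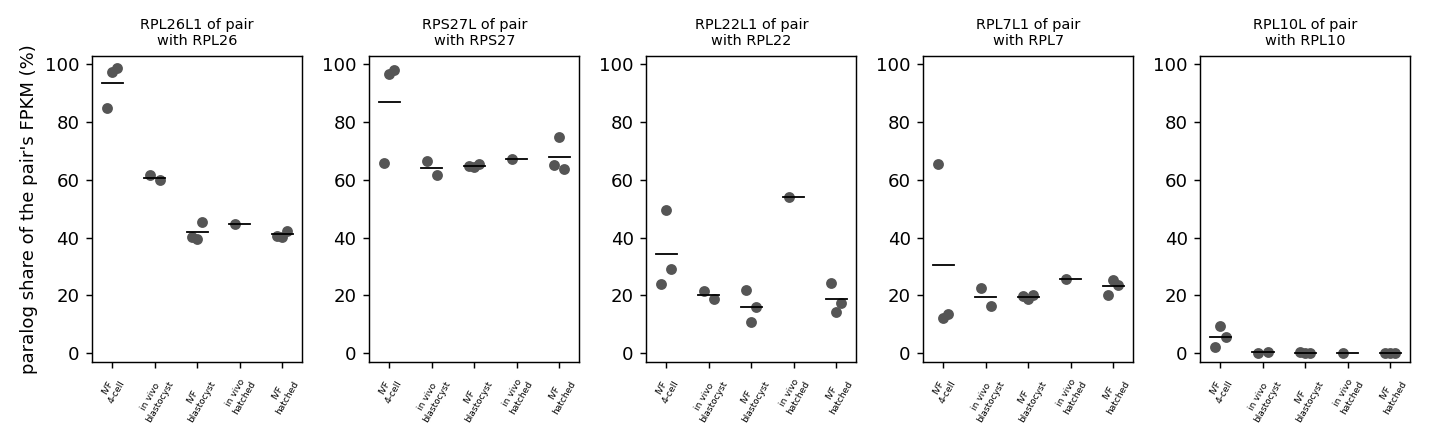
Share of the paralog in the summed FPKM of 5 of the 6 pairs, in percent, in each library by group, with lines at the group means. RPL26L1 lay between 84.8% and 98.9% at the 4-cell stage and at or under 61.6% later, and RPL22L1 was highest in in vivo hatched blastocysts (1 library with FPKM) among the blastocyst groups.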

How the data were processed

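Per the labels' protocols, total RNA from pooled embryos was selected on oligo(dT) beads and sequenced as pairs, so a level also depends on a message's poly(A) tail. For each library the deposited table (build Sscrofa11.1) holds raw read counts in whole numbers, and FPKM that the authors scaled by gene length and library size. Tools in the submitters' processing notes are RSEM, StringTie 1.3.1, HISAT2, Bowtie2 and fastp 0.18.0. Not given in the sources used here are how counts were made, whether strand was used and how reads of near-identical genes were divided. Of 39 value columns 14 were not used: those of TPM, and the FPKM of in vivo hatched library 1, which cannot be matched to the unnumbered count column. The annotated spans of 13 of the 83 genes overlap another protein-coding gene or a long non-coding RNA (RPL9 and KLB, RPS2 and NDUFB10 among them), and reads of such pairs cannot be told apart if strand was ignored. RPL39L and RPL41 were not analysed here. The 59 rows named only by LOC numbers and described as ribosomal proteins were left out and held 0.137% to 0.282% of the counts of the genes kept. Positions come from RefSeq on the same build.

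Levels are CPM, counts over the library's total, with the SD between libraries. Differences were tested two-sided in edgeR 4.0.16 under R 4.3.3 (quasi-likelihood test, TMM scaling, filterByExpr), and p-values were adjusted over all genes tested by Benjamini-Hochberg; an adjusted p under 0.05 is a call and every printed adjusted p comes from it. The 10 blastocyst and hatched libraries formed 1 fit (15528 genes) and the 9 IVF libraries another (16312 genes); of the ribosomal protein genes, 82 of 83 passed the filter in each. The script was tested on simulated counts with the same spread for all genes and libraries, so that test does not cover a library that stands apart. Every pair of replicates differed beyond counting noise (chi-square over its degrees of freedom 78.3 or more), so none was merged. Alternatives were DESeq2 1.42.0, 2 other scalings, no filter, all libraries in 1 fit, a replicate block and leaving out each library.

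The genes, lists and tests were chosen with earlier results of these data known. The rule for named genes took, per comparison and subunit, the 3 called genes with the smallest p in each direction and the largest and lowest change; 12 well-known members; the paralog pairs; the highest and lowest FPKM; and up to 3 called genes a direction from each of 4 lists of partners. Some are left to counts, a few are not reported here, and RPL18, RPL30 and the full lists of called or uncalled genes were named after their values were seen.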

Additional observations from a re-analysis of the deposited data

Results flagged for a closer look

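The change at hatching differed between IVF and in vivo embryos for 3 of the genes named, by the interaction test of edgeR. RPL35A had a difference of -1.64 (log2, IVF minus in vivo), with all in vivo hatched libraries above the in vivo blastocysts and 1 of 3 IVF hatched libraries inside the IVF blastocyst range. RPL17 had a difference of -1.45. EIF4EBP2, a repressor of cap-dependent translation, had a difference of 1.67 (edgeR adjusted p = 0.0401). It went from 36.6 and 54.1 CPM to 16.5 and 19.9 CPM in vivo, and from 33.3, 33.4 and 19.0 to 36.6, 34.8 and 30.9 CPM after IVF, and its call was lost with any 1 of the 10 libraries left out.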

How the results depend on the processing

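Against IVF 4-cell embryos the counts of 67 and 61 genes became 58 to 76 and 49 to 76 with a library left out. The number of all genes called higher ran from 3482 to 5625 and from 3458 to 5630 in these fits. The share of counts at the 4-cell stage was 0.194% without library 1. For IVF against in vivo blastocysts 1 to 8 genes were called with a library left out, for hatched blastocysts 2 to 7, for hatching in vivo 0 to 6 and for the difference in hatching 0 to 4, where a group left with 1 library was assumed to vary like the others. DESeq2 called 54 and 53 genes against 4-cell embryos (2 of the 53 lower), and 23, 8, 10 and 9 in the other comparisons in this order. Of all genes it called 4388 and 4401 higher and 5645 and 5695 lower against 4-cell embryos. In the other comparisons 1651, 1688, 1781 and 989 of all genes were higher and 1293, 1313, 1781 and 890 lower. The fit of all 13 libraries called 0, 0, 0 and 0, beside 4, 64, 37 and 1 of all genes higher and 3, 28, 64 and 0 lower. With no filter the difference in hatching had 4 calls, all lower, beside 908 of all 21593 genes called lower. Summed FPKM in place of counts gave shares of 2.43% and 2.39% for in vivo blastocysts and hatched blastocysts, and 0.756%, 3.28% and 2.75% for IVF 4-cell embryos, blastocysts and hatched blastocysts. FAU changed sign from 4-cell embryos to IVF blastocysts with no filter (0.01), without 4-cell library 1 (1.07), without IVF blastocyst library 2 (0.22) and with the replicate block (0.28), and ran from -0.33 to 1.07 with a library left out. RPL10L at hatching in vivo ran from -6.66 to 3.75 with a library left out. The cause was not tested. Deviations of same-numbered libraries from their group means correlated weakly (-0.0714 to 0.032), and not every library correlated best with its own number. With so few libraries a group, this check cannot decide whether same-numbered libraries belong together. The main fits used no pairing. With the replicate block 14 genes were called for IVF against in vivo blastocysts, 0 for IVF hatching, and 59 and 54 against 4-cell embryos. Of all genes, 868 of 14397 were then called higher for IVF against in vivo blastocysts. Against 4-cell embryos 2192 of 15528 and 2424 of 15448 were. No paired analysis was possible for the in vivo hatched libraries because 1 of their 2 count columns carries no replicate number. Pools of unknown size, 2 in vivo libraries a group and a 4-cell stage of IVF embryos alone limit what these comparisons show. RPL10L and RPL3L had too few counts for their changes to be read.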
